A study of Mus musculus with 6 samples.

Results

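The miR-290 to miR-295 cluster was followed in tumours through 8 mature miRNAs, which are mmu-miR-290a-5p, mmu-miR-290a-3p, mmu-miR-291a-5p, mmu-miR-291a-3p, mmu-miR-292a-5p, mmu-miR-293-3p, mmu-miR-294-3p and mmu-miR-295-3p (written hereafter without the species prefix). They were taken by name from the 1881 mouse miRNAs on the array, and all 8 were found. Tumours came from C57BL/6 mice that carried Hepa1-6, a mouse hepatoma cell line, inoculated into the right flank. The GLE group was 3 tumours from mice given GLE, whose name is not written out in the labels. The daily GLE dose was 0.023 g in a mouse of 10 g, with no duration of dosing stated. The model group was 3 tumours from mice that carry the treatment label none, although the protocol gives them 0.2 ml of saline daily for 28 days. All 6 samples are labelled with an age of 28 d, and each is a separate mouse measured on its own array. The model is a transplanted line, and a piece of tumour also holds cells of the host. GLE and model differed in the row of the slide as well, since all GLE arrays lay in row 1 and all model arrays in row 2 of the same slide, so array row and group cannot be told apart.

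miRNAs are short RNAs that pair with messenger RNAs mainly through the seed, the bases near their 5′ end, and lower the output of those messengers. The miR-290 to miR-295 cluster is transcribed as a single precursor RNA from mouse chromosome 7 and is among the most abundant miRNA sources of mouse embryonic stem cells, where core pluripotency factors bind its promoter, and it is shut down as cells differentiate. Among the members followed here, the AAGUGC core is carried by the 3p arms miR-290a-3p, miR-291a-3p, miR-294-3p and miR-295-3p. Of these, miR-291a-3p, miR-294-3p and miR-295-3p are known in embryonic stem cells for repressing inhibitors of the G1 to S transition such as Cdkn1a and for aiding the reprogramming of fibroblasts. In adult tissue the cluster is largely silent.

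The mature sequences are shown because members share seeds and differ in the 3′ bases that the probes read, and they are from RefSeq on GRCm38.p6. The members lie on the plus strand within chr7:3218639-3220837, a span of 2199 bases. Capitals mark the seed, bases 2 to 8 counted from 1 at the 5′ end. The first pair shares the seed CUCAAAC and is made of 5p arms.
miR-290a-5p: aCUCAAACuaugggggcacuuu
miR-292a-5p: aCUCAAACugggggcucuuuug
The next 3 share AAGUGCU and are 3p arms.
miR-291a-3p: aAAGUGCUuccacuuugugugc
miR-294-3p: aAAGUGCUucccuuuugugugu
miR-295-3p: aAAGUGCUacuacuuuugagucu
The last 3 have a seed that no other member has.
miR-290a-3p: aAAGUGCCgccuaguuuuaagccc
miR-291a-5p: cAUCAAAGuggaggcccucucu
miR-293-3p: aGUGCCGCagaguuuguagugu

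Within the AAGUGCU trio, miR-291a-3p and miR-294-3p were identical at 19 of 22 bases aligned from the 5′ end and differed by A12C, C13U and C22U. The identity of miR-295-3p was 15 of 22 with miR-291a-3p and 12 of 22 with miR-294-3p. The CUCAAAC pair was identical at 15 of 22 bases. The array reads each miRNA with 2 to 4 probes of different length that all pair with its 3′ end, as the plot of covered bases shows. The probe of 15 bases for miR-290a-5p is printed for its run of C, in capitals.
15-base probe of miR-290a-5p: aaagtgCCCCCatag

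**Figure D1:**
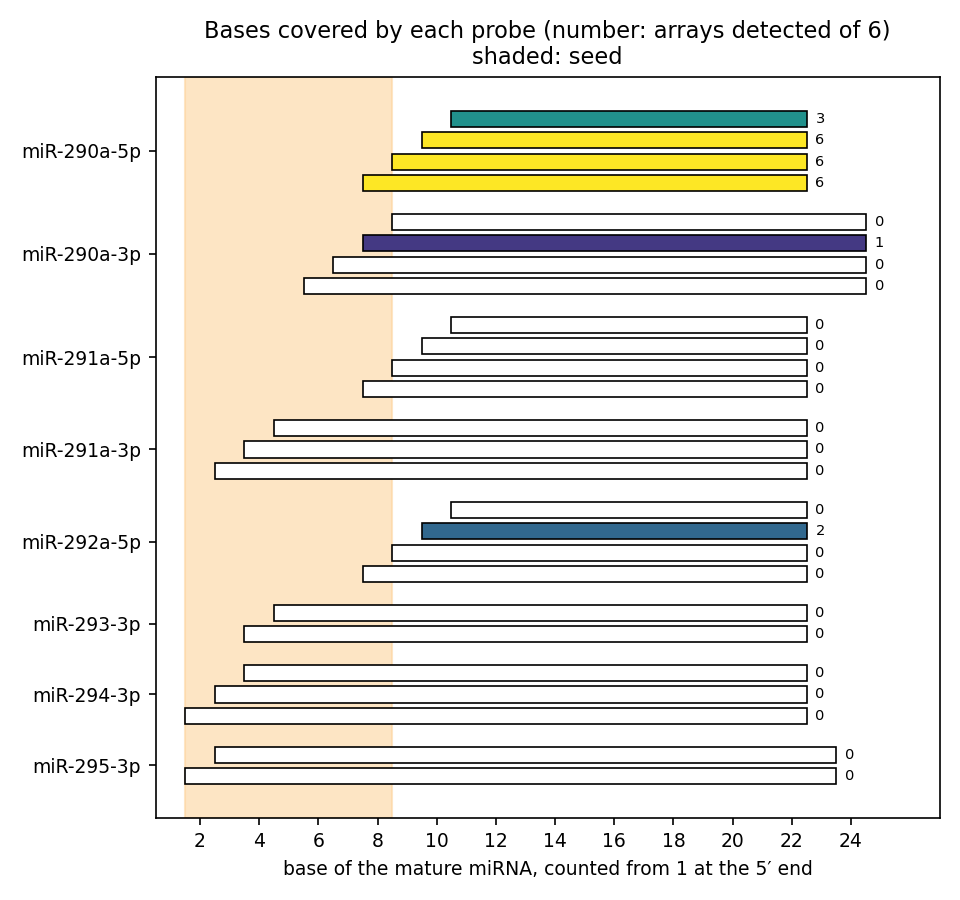
Bases of each mature miRNA, counted from 1 at the 5′ end (x axis), covered by each probe of the 8 members (one bar a probe), with the seed shaded and the number of arrays, of 6, on which the probe was detected beside its bar. Probes of miR-290a-5p cover its 3′ part and 3 of the 4 were detected on 6 arrays, while no probe of miR-291a-5p, miR-291a-3p, miR-293-3p, miR-294-3p or miR-295-3p was detected.

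A spot counted as above background by the scanner software's flag, a probe as detected where a share above 0.5 of its used spots was, and a miRNA where at least 1 of its probes was. By that rule 396, 456 and 432 miRNAs were detected on the GLE arrays and 458, 387 and 378 on the model arrays, and 0 spots were saturated. Of all spots that were not controls, 18.1%, 21% and 19.7% were above background on the GLE arrays and 21.2%, 17.3% and 17% on the model arrays. The labelled origin was checked on 4 miRNAs of hepatocytes. miR-148a-3p and miR-192-5p were detected on all 6 arrays and miR-194-5p on 3 GLE and 2 model arrays, whereas miR-122-5p, the most liver-specific of the 4, was detected on 1 GLE array and 1 model array only.

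Most of the cluster was not detectable in either group of tumours. Of the 8 members, 3 were detected on at least 1 array, namely miR-290a-5p on 6 arrays, miR-292a-5p on 2 and miR-290a-3p on 1. The other 5 were detected on none. The share with any detection, 37.5%, is set against 26.5% for the whole array, where 498 of 1881 miRNAs were detected somewhere, and the share detected on all 6 arrays was 12.5% of members and 18.6% of the array. By arm, 2 of 3 members from 5p arms and 1 of 5 from 3p arms were detected on any array, a difference that was not tested. Over all mature miRNAs named for the locus, it was 4 of 9 from 5p arms and 3 of 9 from 3p arms. Shares by arm over the whole array were not counted. In tumour RNA, fewer cells that make a miRNA and less of it per cell cannot be told apart.

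**Figure D2:**
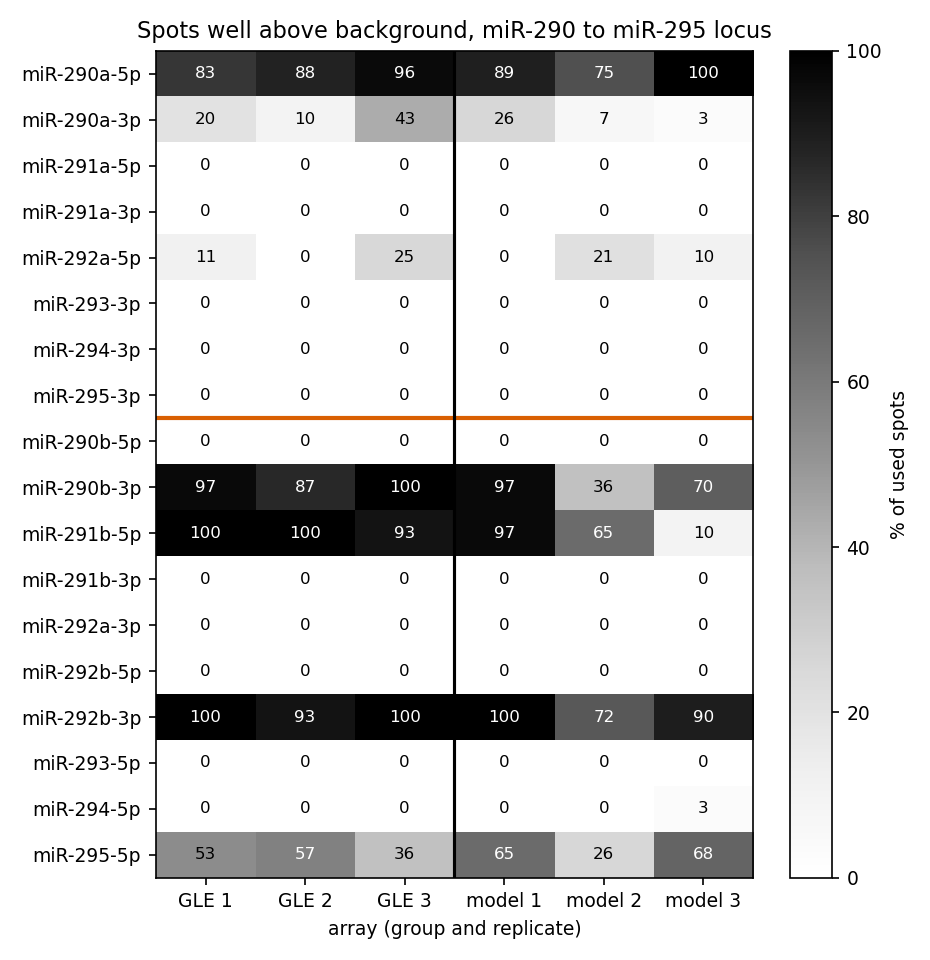
Percentage of used spots well above background (shade and printed value) for the 8 members, above the orange line, and the 10 other mature miRNAs named for the locus, below it, on the 3 GLE arrays (left) and 3 model arrays (right). miR-290a-5p is above background on 75% to 100% of its spots on every array, and 5 members are at 0% on all 6.

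The AAGUGCU trio, which carries the cluster's best known activity in embryonic stem cells, gave no spot above background. Over miR-291a-3p, miR-294-3p and miR-295-3p together, 0 of 264 used spots on the GLE arrays and 0 of 264 on the model arrays were flagged. The mean processed signal of miR-294-3p per array lay between −0.042 and 0.972 intensity units in GLE tumours and between −0.489 and 0.293 in model tumours. For miR-295-3p the array means were −0.643 to 0.169 in GLE tumours and −0.498 to 0.249 in model tumours. For miR-291a-3p they were −1.63 to −0.681 in GLE tumours and −1.48 to −0.545 in model tumours. All of these are near 0 once background is subtracted, and the dimmest detected probe of an array had 11.8 to 13.2 units.

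miR-293-3p, whose seed GUGCCGC was found in no other arrayed miRNA with a RefSeq sequence, also had 0 of 90 spots above background in GLE tumours and 0 of 90 in model tumours, with array means of −1.24 to −0.949 units in GLE tumours and −1.53 to −0.531 units in model tumours. miR-291a-5p, the arm opposite to miR-291a-3p, had 0 of 84 spots in GLE tumours and 0 of 85 in model tumours, with array means of 0.545 to 1.71 units in GLE tumours and 1.12 to 2.52 units in model tumours. Across these 5 members that is 0 of 438 spots on GLE arrays and 0 of 439 on model arrays. Since no array of either group had a probe above background, no fold change was computed for them, and a difference between GLE and model tumours in these 5 was not detectable.

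miR-290a-5p, the first 5p arm of the cluster, was the member seen in every tumour. It had 24 of 29, 22 of 25 and 27 of 28 spots above background on the 3 GLE arrays, and 25 of 28, 21 of 28 and 30 of 30 on the 3 model arrays. Its mean processed signal over all 4 probes, before any scaling, was 22.6, 22.1 and 36.8 intensity units in GLE tumours and 24.2, 19.8 and 23.7 in model tumours. GLE replicate 3 stood highest and the other GLE arrays lay among the model arrays. The array signals averaged 27.2 ± 8.34 units in the GLE group and 22.6 ± 2.41 units in the model group (SD, n = 3 each).

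To compare groups, signals were scaled to the array's own 75th percentile among probes seen on every array, so that a log2 level of 0 is that percentile. It was 202.9, 363.8 and 240.7 units on the GLE arrays and 312.6, 230.9 and 210.6 on the model arrays. On this scale miR-290a-5p was at −3.0, −3.87 and −2.56 in GLE tumours and at −3.54, −3.42 and −3.05 in model tumours. GLE tumours held both the highest and the lowest value, with the 3 model values between, so the groups overlapped. The scaled level averaged −3.14 ± 0.67 for GLE and −3.34 ± 0.26 for model (SD, n = 3 each).

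The difference, GLE minus model, was 0.19 ± 0.34 (SE) on the log2 scale by limma, with a 95% interval of −0.62 to 1.00 and an adjusted p of 0.951 over 388 tested miRNAs. As a linear fold that is 1.14, with limits of 0.651 and 2.00, so neither a level 2.00-fold that of model tumours nor 0.651 of it lies outside the interval. Of the 8 members, 1 was bright enough to be tested and 0 passed an adjusted p of 0.05, beside 0 of 388 miRNAs on the whole array (0%), with 6 (1.55%) at an unadjusted p under 0.05. GLE values that all lay above the model values were found for 0 members and for 18 of 388 miRNAs (4.64%), and values that all lay below for 0 members and 8 of 388 (2.06%). The median difference over all 388 was 0.0078.

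The sign of the miR-290a-5p difference rested on GLE replicate 3. Without that tumour it was −0.10, and without GLE replicate 2 it was 0.55 with an adjusted p of 0.162. The signal of GLE replicate 2 before scaling, 22.1 units, was near that of GLE replicate 1, and it was the array with the highest percentile. The 3 probes that entered the test differed in size of difference, with 0.38 for 13 bases, 0.17 for 14 bases and 0.030 for 15 bases. The 12-base probe, left out of the test, was detected on 1 GLE and 2 model arrays.

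**Figure D3:**
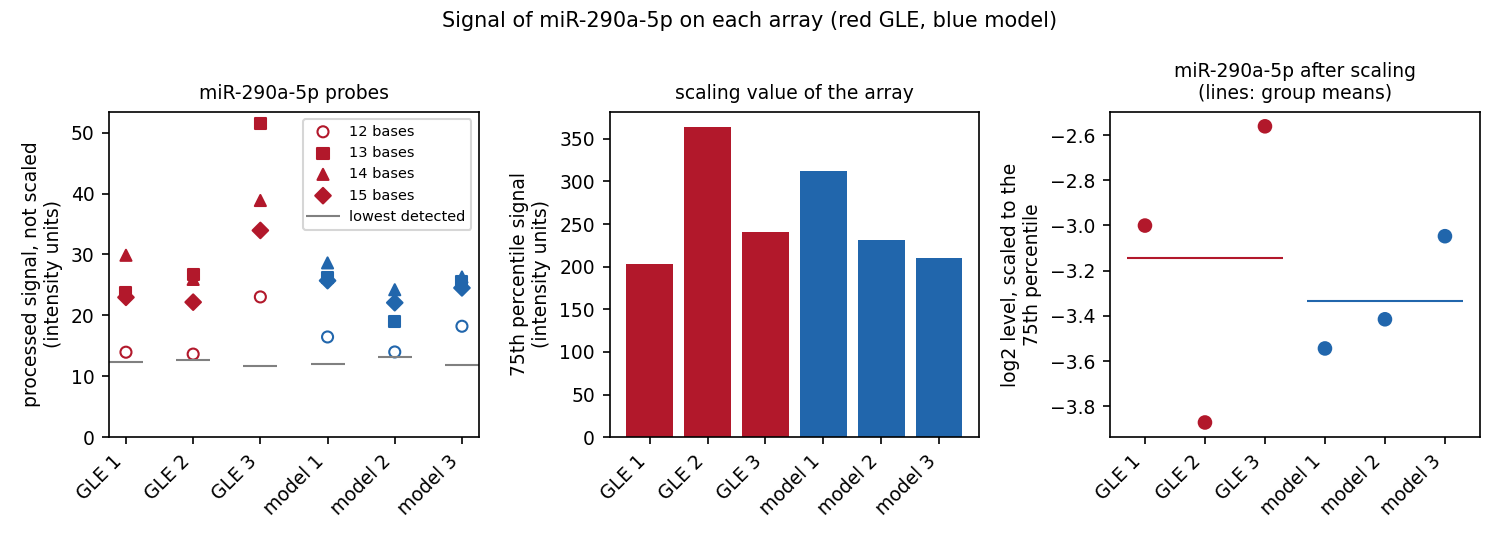
miR-290a-5p on each array, GLE in red and model in blue: processed signal of its 4 probes before scaling in intensity units with the lowest detected signal of the array as a grey dash (left), the 75th percentile used for scaling (middle), and the scaled log2 level with group means as lines (right). GLE replicate 3 is highest at −2.56 and GLE replicate 2 lowest at −3.87, with the 3 model arrays between them.

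miR-292a-5p, which shares the CUCAAAC seed with miR-290a-5p, was detected on GLE replicate 3 and model replicate 2 only. It had 3 of 27, 0 of 28 and 7 of 28 spots above background in GLE tumours and 0 of 27, 6 of 28 and 3 of 29 in model tumours. Only its 13-base probe was detected anywhere, and its signal was 13.4, 8.66 and 34.8 units in GLE tumours and 11.1, 16.8 and 13.4 in model tumours. The other probes of 12, 14 and 15 bases, which cover nearly the same bases, were detected on no array. With detection on 1 array of each group, no difference was tested.

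miR-290a-3p, the partner arm of miR-290a-5p, sat at the edge of detection and was called on GLE replicate 3 alone. Its mean signal was 12.3, 10.4 and 13.2 units in GLE tumours and 12.6, 9.86 and 7.71 in model tumours, with a mean of 11.97 ± 1.46 units for GLE and 10.1 ± 2.43 units for model (SD, n = 3 each). The groups overlapped, since model replicate 1 lay between GLE replicates. In GLE tumours 6 of 30, 3 of 30 and 12 of 28 spots were above background, and in model tumours 7 of 27, 2 of 29 and 1 of 29. It was called on 6 arrays when 1 spot was enough and on 0 when every spot was needed, and miR-292a-5p on 4 and on 1.

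The authors' deposited table, with a value per miRNA and array on a log2 scale, gave the same 3 members a signal. In the authors' deposited table miR-290a-5p was at 3.87, 3.21 and 4.23 in GLE tumours and 3.48, 3.65 and 4.03 in model tumours. In the authors' deposited table miR-290a-3p was above the column's lowest value on 3 GLE and 2 model arrays, and miR-292a-5p on 2 GLE and 3 model arrays. The other 5 members were at the lowest value of every column in the authors' deposited table. That lowest value is shared by 69.2% to 75.8% of the miRNAs of a column.

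The array also names 10 other mature miRNAs for the locus, which are the opposite arms of the members and the arms of miR-290b, miR-291b and miR-292b. Of these 18 in all, 7 were detected on at least 1 array (38.9%) and 4 on all 6 (22.2%). Counted by arm, that was 4 of 9 from 5p arms and 3 of 9 from 3p arms. miR-290b-5p, miR-291b-3p, miR-292a-3p, miR-292b-5p, miR-293-5p and miR-294-5p were detected on no array. Among the 1608 arrayed miRNAs with a RefSeq sequence, the seed AAGUGCU of the trio was also found in miR-302b-3p and miR-302d-3p, and 0 of these 5 were detected. The seed CUCAAAC was also found in miR-293-5p, which was detected on no array, so detection differed among miRNAs of 1 seed.

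The strand of the locus matters for reading these names. miR-290b and miR-292b are annotated on the minus strand, antisense to the members. miR-290b-3p overlaps miR-290a-5p by 21 bases, all 21 complementary in a row, and miR-292b-3p overlaps miR-292a-5p by 19. They are printed because they were detected on all 6 arrays, with the seed in capitals.
miR-290b-3p: aAGUGCCCccauaguuugagua
miR-292b-3p: aAGAGCCCccaguuugaguau

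miR-290b-3p was at −3.39, −4.26 and −3.07 in GLE tumours and −4.08, −3.98 and −3.85 in model tumours on the scaled log2 level, with GLE replicate 2 at the floor. The floor, −4.26, was a fixed level to which lower values were raised, including detected ones. The lowest detected level was below it on GLE replicate 2 (−4.83), model replicate 1 (−4.69) and GLE replicate 3 (−4.35). On the other arrays it was above the floor. GLE replicate 2 detected the 2 probes of miR-290b-3p, with 26 of 30 spots above background. The miR-290b-3p difference was 0.40 ± 0.31 (SE, limma adjusted p 0.937), and 0.19 to 0.74 when each array was left out in turn. Without the floor it was 0.33. miR-292b-3p was at −3.24, −4.25 and −2.83 in GLE tumours and −3.93, −3.77 and −3.61 in model tumours, a difference of 0.33 ± 0.36 (SE, limma adjusted p 0.937), and 0.059 to 0.73 when each array was left out. In both, GLE replicates 1 and 3 were above the model arrays and GLE replicate 2 below them after scaling, as for miR-290a-5p. Before scaling, miR-290b-3p was at 19.4, 16.4 and 28.8 units in GLE tumours and 18.4, 14.7 and 14.7 in model tumours. The unscaled signal of miR-292b-3p was 21.5, 18.6 and 33.9 units in GLE tumours and 20.6, 16.9 and 17.2 in model tumours. Unscaled, GLE replicate 2 thus lay among the model arrays in both.

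miR-295-5p, the arm opposite to the undetected miR-295-3p, was at −3.22, −3.76 and −3.88 in GLE tumours and −3.39, −3.98 and −2.84 in model tumours. Its difference was −0.22 ± 0.33 (SE, limma adjusted p 0.946), and 0.063 without model replicate 3. miR-291b-5p, from a hairpin between those of miR-292a and miR-293, was at −3.46, −4.26 and −3.65 in GLE tumours, GLE replicate 2 being at the floor, and −3.83, −3.89 and −4.19 in model tumours. Its difference was 0.18 ± 0.25 (SE, limma adjusted p 0.946), and 0.012 to 0.39 when each array was left out. Without the floor it was 0.22. All 4 of its probes entered the test through the GLE arrays, since model replicate 3 detected none of them, so its positive difference is conditioned on the GLE group. Before scaling, GLE replicate 2 was not low for miR-291b-5p, with 18.4, 18.3 and 19.3 units in GLE tumours and 22.0, 15.7 and 10.4 in model tumours. Of the 5 tested miRNAs of the locus, 0 passed. A probe of miR-290b-3p, detected on 3 GLE arrays and 1 model array, had also entered through the GLE arrays. So had the 13-base probe of miR-295-5p, detected on 3 GLE and 2 model arrays. With probes detected on all 6 arrays only, miR-291b-5p could not be tested, and the difference was 0.19 for miR-290a-5p, 0.36 for miR-290b-3p, 0.33 for miR-292b-3p and −0.23 for miR-295-5p.

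**Figure D4:**
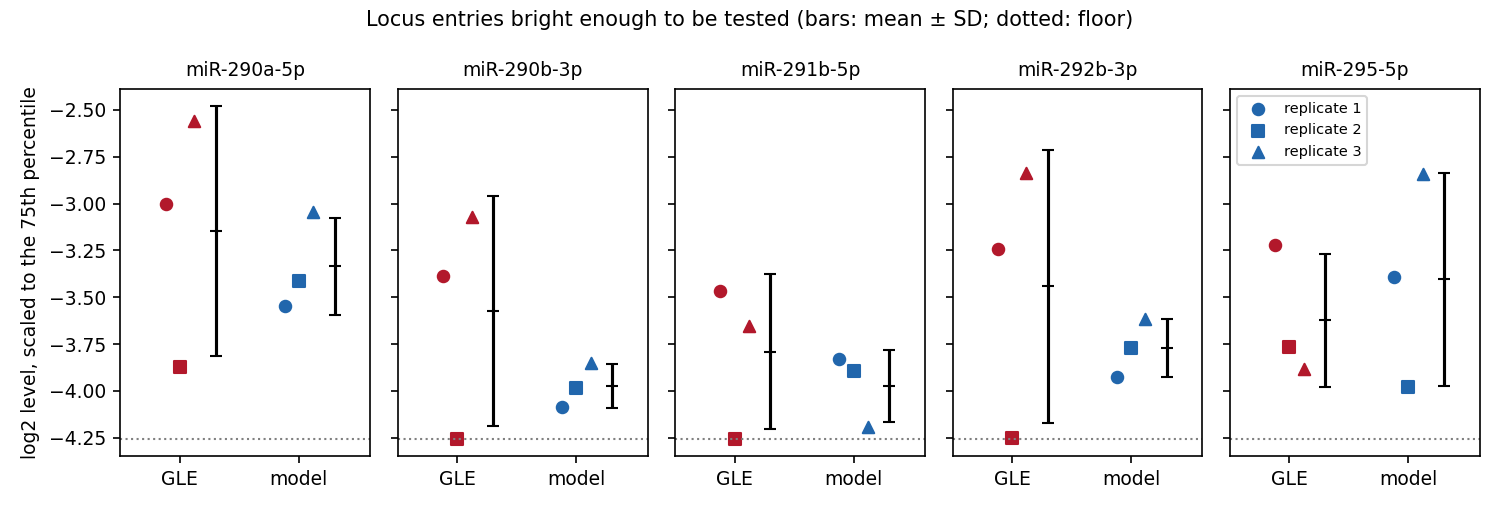
Scaled log2 level (y axis) of the 5 locus miRNAs bright enough to be tested, in GLE tumours (red) and model tumours (blue), with a marker shape per replicate, mean ± SD beside the points (n = 3 each) and the floor dotted. GLE and model values overlap in all 5, and GLE replicate 2 (square) is at or near the floor in miR-290b-3p, miR-291b-5p and miR-292b-3p.

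miR-291a-5p and miR-291b-5p share the seed AUCAAAG and are identical at 20 of 22 bases, differing by C1G and U22C counted from the 5′ end. The probes read the 3′ end, so the last base is the one that separates them, and it is the first base of each probe. Their 12-base probes differ by that 1 base, in capitals.
12-base probe of miR-291a-5p: Agagagggcctc
12-base probe of miR-291b-5p: Ggagagggcctc
The probe of miR-291a-5p was detected on 0 arrays, and that of miR-291b-5p on 3 GLE arrays and 1 model array.

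The other pluripotency cluster, miR-302 and miR-367, which is active in epiblast-stage cells, was also not detected. Among its arms, miR-302b-3p and miR-302d-3p carry the seed AAGUGCU of the trio. Of the 10 mature miRNAs of miR-302 and miR-367, 0 were detected on any array. They had 0 of 860 spots above background in GLE tumours and 1 of 867 in model tumours. Over the whole array, 1383 of 1881 miRNAs (73.5%) were likewise detected on no array. The miR-17 family, whose members carry the related seed AAAGUGC or, in miR-18a-5p and miR-18b-5p, AAGGUGC, is widely made in dividing cells and was present. Of 8 listed, 7 were on the array and 6 were tested, while miR-18b-5p was detected on no array. All 6 differences were negative, from −0.35 to −0.18 with a median of −0.30 against 0.0078 over all tested miRNAs. Over the whole array 190 of 388 tested differences were negative. A probe of miR-17-5p, detected on 2 GLE and 3 model arrays, had entered through the model arrays. With probes detected on all 6 arrays only, the 6 differences stayed negative with a median of −0.28. None of the 6 passed by limma, and 4 of them, miR-18a-5p, miR-20a-5p, miR-20b-5p and miR-106b-5p, turned to 0.056, 0.033, 0.035 and 0.026 without GLE replicate 3. Of the other tested members, miR-17-5p ranged from −0.62 to −0.088 and miR-93-5p from −0.64 to −0.036 when each array was left out.

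**Figure D5:**
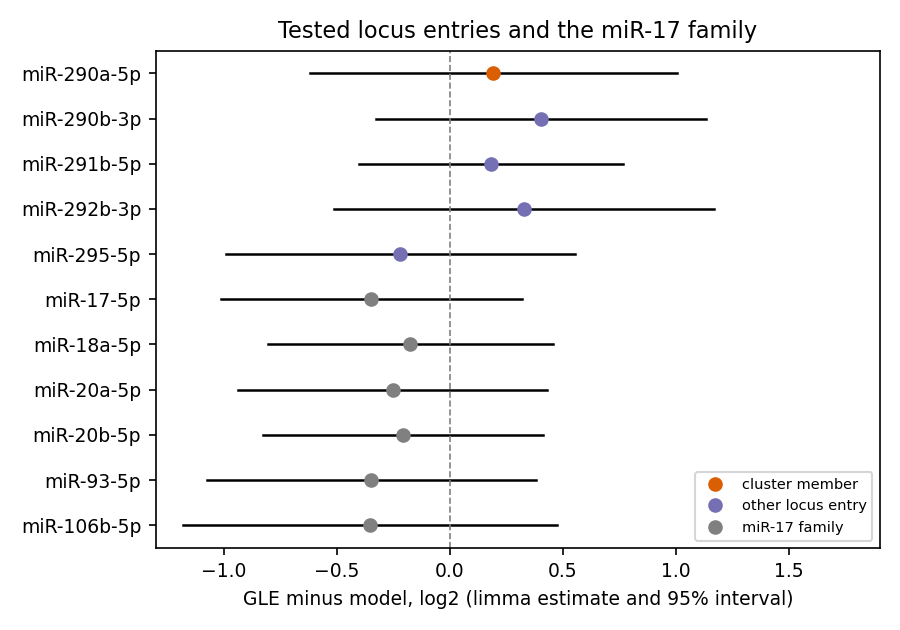
Difference GLE minus model on the log2 scale (x axis, limma estimate as a point, 95% interval as a line) for miR-290a-5p, the 4 other tested locus miRNAs and the 6 tested miRNAs of the miR-17 family. Every interval includes 0, and miR-290a-5p spans −0.62 to 1.00.

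The pattern of miR-290a-5p over the 6 arrays was set against all other tested miRNAs by the root mean square distance of log2 values centred on each miRNA's own mean. The nearest were miR-1224-5p at 0.0946, miR-292b-3p at 0.104, miR-7070-5p at 0.133, miR-3473c at 0.136 and miR-7018-5p at 0.138, against a median distance of 0.401. In each of the 5, as in miR-290a-5p, GLE replicate 3 was the highest of the 6 arrays and GLE replicate 2 the lowest. That likeness follows from choosing them by distance to this pattern. For miR-3473c the GLE replicate 2 value was at the floor, −4.26. For miR-1224-5p the levels were 3.11, 2.16 and 3.44 in GLE tumours and 2.46, 2.63 and 2.76 in model tumours.

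miRNAs of other cells that a tumour piece can hold were read on the same arrays, and their part in the cluster's values was not tested. Medians are of GLE minus model differences. Of 7 immune miRNAs all 7 had a positive difference, with a median of 0.71 and mean levels per array of −1.02 to 0.38 in GLE tumours and −1.26 to −0.66 in model tumours. All 7 stayed positive with each array left out, with medians of 0.41 (without GLE replicate 3) to 1.01. The 6 of fibroblasts and smooth muscle had 5 positive and 1 negative difference and a median of 0.64, with array means of −2.43 to −1.01 in GLE and −2.50 to −2.01 in model tumours, and leaving out GLE replicate 3 gave a median of 0.21, GLE replicate 2 a median of 1.03. The 4 muscle miRNAs had 3 positive and 1 negative difference and a median of 0.51, with array means of −1.73 to −0.075 in GLE and −2.38 to −1.11 in model tumours. Their direction rested on GLE replicate 1, the array at −0.075, without which all 4 were negative with a median of −0.076, and the median was 0.089 without model replicate 1. Of 4 hepatocyte miRNAs, 3 were tested, with 2 positive and 1 negative difference and a median of 0.48, and array means were −2.98 to −0.29 in GLE and −2.91 to −1.62 in model tumours. Their direction rested on GLE replicate 2, the array at −0.29, without which all 3 were negative with a median of −0.57, and the median was 0.068 without model replicate 3. miR-194-5p, detected on 3 GLE and 2 model arrays, had entered the test through the GLE arrays. With probes detected on all 6 arrays only, 2 hepatocyte miRNAs were tested, 1 positive and 1 negative, with a median of 0.23. Of 2 endothelial miRNAs, 1 was tested, with a difference of 0.49 and levels of 1.52 to 2.0 in GLE and 1.2 to 1.44 in model tumours. Of 6 epithelial miRNAs, 4 were detected and 3 tested, all 3 with a negative difference and a median of −0.63, and array means were −1.0 to 1.93 in GLE and 0.42 to 1.58 in model tumours, but the median was 0.048 without GLE replicate 3. Of 3 erythrocyte miRNAs, 2 were tested, both negative with a median of −0.28, and array means were −0.60 to 1.0 in GLE and −0.056 to 1.17 in model tumours, but leaving out GLE replicate 3 gave a median of 0.091 and leaving out model replicate 3 gave 0.095. In these lists 0 miRNAs passed the limma test. GLE replicate 3, the highest array for miR-290a-5p, also had the highest mean in the immune, fibroblast and endothelial lists. GLE replicate 2, the lowest array for miR-290a-5p, was not the lowest in the immune, fibroblast and endothelial lists, and in each of them model replicate 2 lay below it. In the hepatocyte and epithelial lists the order was reversed. There GLE replicate 2 had the highest mean, at −0.29 and 1.93, and GLE replicate 3 the lowest, at −2.98 and −1.0. What these orders mean for miR-290a-5p was not tested.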

How the data were processed

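Per the file headers and the submitters' processing notes, Agilent Feature Extraction 10.7.1.1 produced the authors' scanner files and subtracted background. Their deposited values are linear intensity, with no scaling between arrays. The authors also deposited a table on a log2 scale, which served as an alternative (how it was made: not given in the sources used here). Control spots and 1401 to 1883 outlier-flagged spots per array were dropped, and spots of a probe averaged, in R 4.3.3. Arrays were divided by the 75th percentile of the 636 probes detected on all 6, floored and put on the log2 scale. A miRNA's level was the mean over those of its probes that every array of GLE, of model or of both detected. This left 388 for limma 3.58.1 (lmFit and eBayes, two-sided, Benjamini-Hochberg) and 1493 untested. The number of arrays limits the precision. Sequences were matched by name for 1608 of 1881 miRNAs. The fit was checked on simulated data. Members, lists and tests were chosen with earlier results of these data known. Named were all members, the tested miRNAs of the related lists and the 5 nearest to the pattern of the tested member. Alternatives covered background, scaling, filters, floor, summaries, pairing and each array left out.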

Additional observations from a re-analysis of the deposited data

How the results depend on the processing

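The difference of miR-290a-5p was positive and above the threshold of 0.05 on the adjusted p under all 13 other settings of background, scaling, filter, floor, outlier spots, spot and probe summary, deposited table and replicate block, with a range of 0.051 (the authors' deposited table) to 0.27 (no scaling). It was −0.10 to 0.55 when each array was left out in turn, negative without GLE replicate 3. With the replicate number as a block it was 0.19 (adjusted p 0.98), and 0 miRNAs passed. Same-numbered arrays correlated at −0.62, −0.18 and 0.38 in their deviations from group means. They also lay in the same column of the slide, column 1 for replicate 1, column 3 for replicate 2 and column 4 for replicate 3. With 3 arrays per group, these correlations cannot tell whether the replicate numbers mark a pairing. Left out in turn, the arrays kept the sign but moved the size of miR-290b-3p (0.19 to 0.74, lowest adjusted p 0.0791), miR-292b-3p (0.059 to 0.73, 0.0818), miR-291b-5p (0.012 to 0.39), miR-17-5p (−0.62 to −0.088) and miR-93-5p (−0.64 to −0.036). The sign turned in ranges of −0.40 to 0.063 for miR-295-5p, −0.39 to 0.056 for miR-18a-5p, −0.52 to 0.033 for miR-20a-5p, −0.44 to 0.035 for miR-20b-5p and −0.69 to 0.026 for miR-106b-5p. The count of miRNAs past the threshold was 0 under every setting run, with a lowest adjusted p of 0.0621 without GLE replicate 2. Arrays with detection moved to 6 (any spot) or 0 (every spot) for miR-290a-3p, and to 4 or 1 for miR-292a-5p, by construction of the rule. miR-291b-5p had no value with a floor 2-fold higher, because all its values were at that floor, and none with probes detected on all 6 arrays, because model replicate 3 detected none of its probes. The slide as a block was not run, since all 6 arrays share 1 slide. Signal near background limits what can be said of every member.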

Other observations

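The locus miRNAs that were detected often held a run of G or C, a feature chosen after their values were seen and given here as a description. With a run of at least 4 identical bases of G or C in the RefSeq sequence, 5 of 5 locus miRNAs were detected on at least 1 array and 4 of 5 on all 6. Of the 12 without such a run, 2 were detected on any array and 0 on all 6. Among the 5 with a run, miR-290a-5p with miR-290b-3p and miR-292a-5p with miR-292b-3p are antisense pairs, so each pair holds the same run on opposite strands. Over all 1608 arrayed miRNAs with a RefSeq sequence, the share detected on any array was 41.8% of the 299 with a run and 22.3% of the 1309 without. The share detected on all 6 arrays was 29.8% with a run and 16% without. All of miR-1224-5p, miR-292b-3p, miR-7070-5p, miR-3473c and miR-7018-5p, the nearest to miR-290a-5p in pattern, held such a run, of 4 or 5 bases. Over the array 299 of 1608 held one, and the share among the tested miRNAs was not counted. miR-292b-3p is also 1 of the 5 locus miRNAs above. Whether the run bears on detection was not tested.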
